A study of Mus musculus with 16 samples.

Results

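Synaptic vesicle and exocytosis genes encode the proteins that load, dock, prime and fuse the vesicles with which neurons and neuroendocrine cells release transmitters, hormones and peptides. The 44 genes described here are SNARE proteins, synaptotagmins and Doc2b, vesicle proteins, Rab3 GTPases, active zone and priming factors, vesicular transmitter transporters and a dynamin. Their members in the data are the listed ATAC-seq peaks whose centre lies nearest to the start site of one of these genes among all protein-coding genes. There were 284 such peaks of 80367 in all, and 38 of the 44 genes held at least 1.

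ATAC-seq reads accumulate where the Tn5 transposase can reach the DNA, so that a peak marks an accessible site. The cells were small cell lung cancer (SCLC) cells from tumors of TKO;Hes1 GFP/+ mice, which carry floxed (fl/fl) alleles of Rb, p53 and p130 and 1 Hes1 allele that expresses GFP from its own regulatory regions. In this model an adenovirus carrying Cre under the CMV promoter (Ad-CMV-Cre) is given through the trachea, so that both groups carry the 3 deletions and the reporter allele and differ in the reporter's level. GFPhigh cells, with a positive Hes1-GFP label, are the non-neuroendocrine (non-NE) cells, and GFPneg cells, with a negative label, are the neuroendocrine (NE) cells. The cells of each mouse were sorted from its pooled tumors. The labels give 4 pairs of populations from 3 mice, of which 1 pair is a technical replicate of the same mouse, and 8 libraries run on 2 lanes each, in 16 runs.

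The deposited lists hold 40828 peaks that were more accessible in GFPhigh than in GFPneg cells, called opened here, and 39539 that were less accessible, called closed. Each peak comes with a mean normalized count over all libraries, called the mean below, and with no value per library. How deeply each library was read is not known from these values, no mean has an SD or n, and the spread between mice cannot be given. Being listed is the authors' call of a difference. A peak that is not listed may have failed a limit or may not have been called, and sites that did not change are not in these lists. In sorted bulk populations, fewer cells with a site open and a less open site in each cell cannot be told apart.

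In a regulated exocytic cell, SNARE proteins on vesicle and plasma membrane zip together to fuse the membranes, synaptotagmins sense the calcium that triggers the step, and Rab3, RIM, Munc13, complexin and CAPS proteins tether and prime the vesicle beforehand. Pulmonary neuroendocrine cells and the NE tumors that resemble them carry this machinery for the release of dense-core and small clear vesicles. Many genes of the group are also known neuronal targets of REST, a repressor that binds a long element, RE1, at neuronal genes.

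The promoters of these genes carried accessible DNA of different base composition. For a look at the sequences, the 120 bases just before the annotated start are printed for the highest-mean promoter peaks whose 120 bases hold no annotated exon, on the strand of the gene, in lower case with CpG dinucleotides in capitals. The closed promoters are Rims1 (chr1:22805995-22806114, minus strand), Rab3c (chr13:110280186-110280305, minus strand) and Syt14 (chr1:193035776-193035895, minus strand), and the opened one is Vamp1 (chr6:125215431-125215550, plus strand), all on mm10. They hold 20, 2, 17 and 4 CpG dinucleotides.
Rims1: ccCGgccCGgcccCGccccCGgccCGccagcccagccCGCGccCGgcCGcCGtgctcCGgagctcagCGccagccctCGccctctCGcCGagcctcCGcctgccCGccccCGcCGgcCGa
Rab3c: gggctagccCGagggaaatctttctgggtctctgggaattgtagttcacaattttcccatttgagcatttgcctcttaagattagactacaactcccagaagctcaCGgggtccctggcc
Syt14: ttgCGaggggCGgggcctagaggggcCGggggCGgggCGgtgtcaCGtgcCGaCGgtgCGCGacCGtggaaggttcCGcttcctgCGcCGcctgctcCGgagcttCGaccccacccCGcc
Vamp1: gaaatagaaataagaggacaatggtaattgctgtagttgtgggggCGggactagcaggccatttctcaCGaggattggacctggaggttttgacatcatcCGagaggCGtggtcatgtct

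Away from promoters, the central 200 bases of closed peaks are shown for the 3 genes with the highest-mean distal peak that held one of the 5 short motifs given below and no exon. Capitals mark the motifs, found on either strand. They are a peak in an intron of Rab3c (chr13:110144852-110145051, minus strand), a peak upstream of Snap25 (chr2:136689677-136689876, plus strand) and a peak in an intron of Rab3b (chr4:108906081-108906280, plus strand). The first holds a FOX string, the second a TEAD string and an NKX2 string that overlaps an AP-1 string, and the third an AP-1 string.
Rab3c: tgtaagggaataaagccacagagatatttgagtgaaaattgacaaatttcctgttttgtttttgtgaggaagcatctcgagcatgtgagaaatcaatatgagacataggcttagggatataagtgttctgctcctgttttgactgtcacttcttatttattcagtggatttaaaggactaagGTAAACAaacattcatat
Snap25: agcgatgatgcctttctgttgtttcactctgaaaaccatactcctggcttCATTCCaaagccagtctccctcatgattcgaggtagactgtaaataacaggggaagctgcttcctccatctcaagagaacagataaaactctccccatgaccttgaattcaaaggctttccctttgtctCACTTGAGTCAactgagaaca
Rab3b: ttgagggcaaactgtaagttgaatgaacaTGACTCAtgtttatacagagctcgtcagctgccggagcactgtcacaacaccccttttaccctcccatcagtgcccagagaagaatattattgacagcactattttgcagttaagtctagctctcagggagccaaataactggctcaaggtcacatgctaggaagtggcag

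Most peaks of these genes were closed in GFPhigh cells. Of the 284 peaks, 225 were closed and 59 opened, a closed share of 79.2% with a Wilson 95% interval of 74.1 to 83.5%, which covers counting error only. Of all listed peaks, 49.2% were closed. By gene, 23 of the 38 genes with a peak (60.5%) had more closed than opened peaks, 12 had more opened and 3 had equal numbers. Of all protein-coding genes with a listed peak, 37.5% had more closed than opened peaks. Closed peaks alone were found at 17 genes (44.7%, against 21.7% of all protein-coding genes with a listed peak), opened peaks alone at 6 (15.8%, against 36.9%), and peaks of both lists at 15 (39.5%, against 41.5%). Stx1a, Napb, Syngr3, Sypl2, Rph3a and Unc13c had no listed peak.

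**Figure D1:**
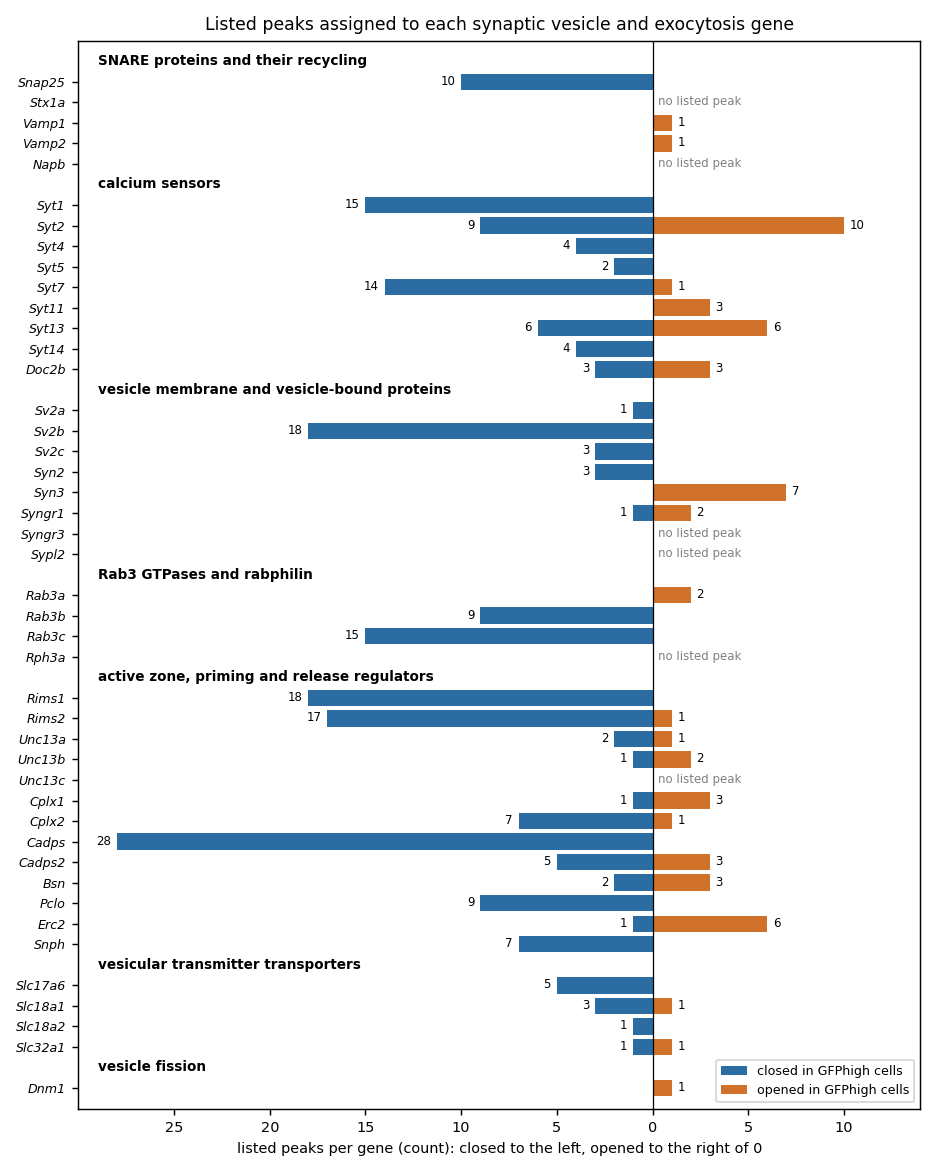
Number of listed peaks assigned to each of the 44 genes, ordered by role, with closed peaks drawn to the left and opened peaks to the right of 0 (x axis, count of peaks). Cadps (28 closed), Rims1 and Sv2b (18 closed each) have the longest bars on the closed side and Syt2 (10 opened) and Syn3 (7 opened) on the opened side.

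The closed peaks were unevenly spread over the genes. The 5 genes with the most closed peaks, Cadps, Rims1, Sv2b, Rims2 and one of Syt1 and Rab3c (15 each), held 96 of the 225, or 42.7%. The 16 genes over 100 kb long held 146 closed and 29 opened peaks, and the 28 shorter genes 79 closed and 30 opened, so that the closed share was 83.4% and 72.5%. These shares were not computed over all long and all short genes, so whether the difference is particular to these genes is not known. With every gene counted once, the mean of the genes' closed shares was 66.4%, against 41.9% over all protein-coding genes with a listed peak.

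The same contrast was seen at promoters, taken as peaks with their centre within 1 kb of a protein-coding start site. Of the 41 promoter peaks, 35 were closed (85.4%), while 25.7% of all listed promoter peaks were. A closed promoter peak was found at 19 of the 44 genes (43.2%), against 8.42% of all protein-coding genes, and an opened one at 6 (13.6%), against 26.6%. With a promoter of 3 kb, the numbers were 24 genes (54.5%, against 12.7%) and 10 genes (22.7%, against 30.3%). No gene had promoter peaks of both lists within 1 kb, which is also rare in general, with 0.739% of all protein-coding genes and 2.16% of those with a promoter peak. The 6 opened promoters belonged to Vamp1, Vamp2, Syngr1, Syt11, Unc13b and Dnm1.

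**Figure D2:**
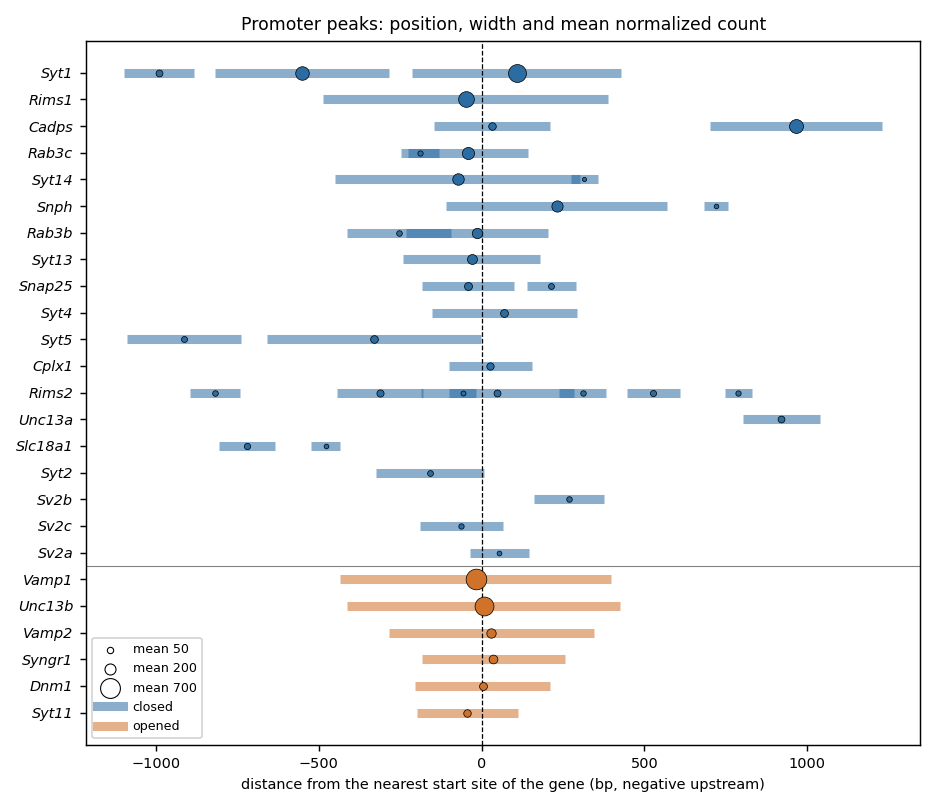
Promoter peaks of 25 genes, drawn as bars from their start to their end by distance from the nearest start site of the gene (x axis, bp, negative upstream). The points mark the peak centres, with their size set by the mean normalized count. The 19 genes above the line have closed peaks (blue) and the 6 below it opened ones (orange), whose centres all lie within 44 bp of the start.

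The opened promoter peaks sat on the start sites, with centres 3 to 44 bp away, while the 35 closed ones ranged from 14 to 991 bp. In 10 of the 19 genes with a closed promoter, the peak with the highest mean was centred within 100 bp of the start. That peak had a mean of 18.1 or more in each of the 19 genes, with a median of 90.2, and the 6 opened promoter peaks had means of 79.8 to 762 with a median of 127. The CpG density of these peaks was 1.73 to 14.3 per 100 bp in the closed and 4.50 to 13.1 in the opened promoters, with medians of 8.66 and 10.01, so that the ranges overlapped.

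Among the SNARE proteins, Snap25, the plasma membrane SNARE that pairs with syntaxin 1 and synaptobrevin, had 10 peaks and all were closed. A pair lay at the promoter, at chr2:136713271-136713551 (mean 93.2) and chr2:136713618-136713766 (mean 40.2). Its highest mean, 164.6, belonged to an intergenic peak 64.5 kb upstream (chr2:136648637-136649199), and a peak 1035 bp upstream had a mean of 154. The vesicle partners went the other way. Vamp2, the synaptobrevin of most central synapses, had 1 opened peak at its promoter (chr11:69088226-69088853, mean 138). Vamp1, its close relative, had 1 opened promoter peak (chr6:125215118-125215948) with the highest mean of all 284 peaks, 762. Stx1a, which encodes syntaxin 1A, had no listed peak.

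The synaptotagmins and Doc2b, grouped as calcium sensors although some synaptotagmins do not bind calcium, held 57 closed and 23 opened peaks. Syt1, the fast calcium sensor of synchronous release, had 15 peaks, all closed, with 3 at the promoter, at chr10:109010546-109011188 (mean 563), chr10:109011268-109011800 (mean 314) and chr10:109011865-109012080 (mean 62.7). The first of them had the highest mean of the closed peaks, and 4 further peaks lay in introns at 73.7 to 81.1 kb from the start, 3 with means of 150 to 180.2 and 1 with a mean of 12.7. Syt7, a slower and more sensitive sensor, had 14 closed peaks and 1 opened one. Of these, 8 closed peaks lay upstream between 15.7 and 29.9 kb from the start, including one with a mean of 208, and none of its peaks was within 1 kb of the start. Syt4, Syt5 and Syt14 had closed peaks only (4, 2 and 4), each with a closed promoter peak, at chr18:31447114-31447558 for Syt4, chr7:4546568-4547225 for Syt5 and chr1:193035474-193036224 for Syt14. Their means were 90.2, 85.6 and 219. Syt5 and Syt14 each had another closed promoter peak, at chr7:4547307-4547656 (mean 42.1) and chr1:193035361-193035443 (mean 8.76). Syt11, a synaptotagmin that lacks calcium binding, had 3 peaks and all were opened, with 1 at the promoter (chr3:88772488-88772798, mean 79.8).

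The remaining genes of this group, Syt2, Syt13 and Doc2b, held peaks of both lists, which in part alternated along the locus. At Syt2, the fast sensor of many inhibitory and brainstem synapses, 9 peaks were closed and 10 opened. The closed ones lay at the promoter (chr1:134646358-134646687, mean 38.8) and, for 8 of them, inside the gene. Of the opened ones, 8 lay inside the neighbouring gene Ppp1r12b, which encodes a myosin phosphatase subunit, and had means of 10.4 to 104. At Syt13, a synaptotagmin without calcium binding, 6 peaks were closed and 6 opened. The promoter peak (chr2:92914856-92915278, mean 157) was closed, none of the opened ones lay in Syt13 and 3 lay inside Prdm11. At Doc2b, a soluble C2-domain sensor, 3 peaks were closed and 3 opened, with the highest mean, 115, in an opened peak in an exon (chr11:75769257-75769576). The nearest start site does not show which gene a peak serves, and this was not tested.

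**Figure D3:**
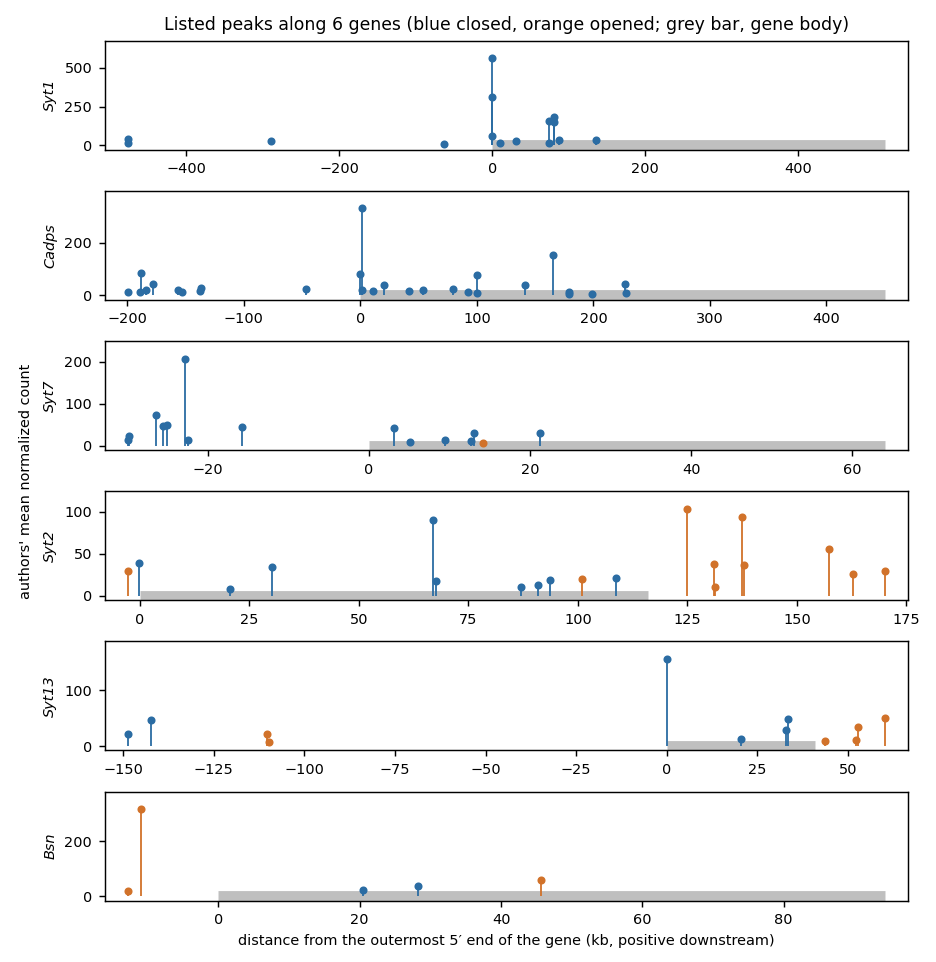
Listed peaks along 6 genes, with the mean normalized count of each peak (y axis, each panel with its own scale) against its distance from the outermost 5′ end of the gene (x axis, kb). Blue marks closed and orange opened peaks, and the grey bar is the gene body. Closed peaks lie upstream of and in the first 136 kb of Syt1 and 228 kb of Cadps, upstream of and inside Syt7, at the promoter and inside Syt2, and far upstream of, at the promoter of and inside Syt13. At Syt2 and Syt13, 8 of 10 and 4 of 6 opened peaks lie past the end of the gene.

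The vesicle membrane and vesicle-bound proteins held 26 closed and 9 opened peaks. Sv2b, one of the SV2 transporter-like proteins of secretory vesicles, had 18 closed peaks, 12 of them inside the gene, with means of 6.83 to 58.3. Its relatives Sv2a and Sv2c had 1 and 3, and each of the 3 genes had a closed promoter peak, at chr3:96181115-96181295 (mean 18.1) for Sv2a, chr7:75308888-75309102 (mean 32.7) for Sv2b and chr13:96132511-96132767 (mean 28.6) for Sv2c. The synapsins, which tether vesicles to each other, were split. Syn2 had 3 closed peaks, 7.39 to 42.8 kb upstream, with means of 19.1, 70.3 and, for the closest (chr6:115127294-115127737), 141. Syn3 had 7 opened peaks, all in its introns 23.4 to 73.8 kb from the start, with means of 10.7 to 135, the highest at chr10:86459496-86460105. Syngr1, a vesicle protein with 4 membrane spans, had an opened promoter peak (chr15:80091161-80091598, mean 116), another opened peak 1947 bp upstream and 1 closed peak with a mean of 9.59. The promoter peak lay inside both Syngr1 and the overlapping gene Rpl3, and the opened peak upstream lay inside Rpl3 only.

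Of the Rab3 GTPases, which link vesicles to the active zone, Rab3b and Rab3c had 9 and 15 peaks and all were closed. Both had a peak on the start site, Rab3b at chr4:108878968-108879404 (mean 175) and Rab3c at chr13:110280041-110280410 (mean 248). A weaker promoter peak lay at chr4:108889877-108890194 for Rab3b (mean 34.995) and at chr13:110281031-110281148 for Rab3c (mean 27.3), and the Rab3c intron peak shown above had a mean of 209.6. Rab3a, the most abundant Rab3 of synapses, had 2 opened peaks, 1335 and 2163 bp upstream of the start, with means of 76.6 and 275, the latter at chr8:70752135-70752897. The promoter definition of 1 kb left both of them out. Rph3a, encoding the Rab3 effector rabphilin, had none.

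The active zone, priming and release regulators held the most peaks, 98 closed and 20 opened. Cadps, encoding the priming factor CAPS of dense-core vesicles, had 28 closed peaks and no opened one, 18 of them inside the gene, led by a peak 966 bp downstream of its start (chr14:12821814-12822344, mean 332), with a further promoter peak at chr14:12822834-12823191 (mean 82.1). Rims1 and Rims2, the RIM scaffolds, had 18 and 17 closed peaks, and Rims2 had 1 opened peak with a mean of 8.46. The Rims1 promoter peak (chr1:22805606-22806480) had a mean of 428. Rims2 had 7 closed promoter peaks, 6 around one start and 1 at a start farther along the gene (chr15:39659380-39659848, mean 63.8), and its highest mean was 246 at a peak 1529 bp upstream. The 6 lay at chr15:39197438-39197588 (mean 34.5), chr15:39197888-39198152 (mean 70.04), chr15:39198233-39198315 (mean 22.2), chr15:39198601-39198745 (mean 31.5), chr15:39198811-39198971 (mean 45.6) and chr15:39199110-39199193 (mean 28.45). Pclo, encoding the scaffold piccolo, had 9 closed peaks. Snph, encoding syntaphilin, had 7, led by the promoter peak chr2:151631979-151632656 (mean 208) with a small one beside it at chr2:151631793-151631865 (mean 15.4).

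Other genes of this role were mixed or leaned to the opened side. Erc2, an active zone scaffold, had 6 opened peaks and 1 closed one, Cplx1 had 3 and 1, Bsn 3 and 2, and Unc13b 2 and 1. The means at Erc2 were 7.15 to 61.7. At Cplx1, a complexin that clamps the SNARE complex, the closed peak was the promoter (chr5:108549870-108550123, mean 74.97), and the 3 opened peaks lay upstream with means of 7.04 to 10.1. At Unc13b, a Munc13 priming factor, the promoter was opened (chr4:43058668-43059505, mean 631), and at Unc13a, the Munc13 of most excitatory synapses, a closed peak lay 921 bp from the start (chr8:71670697-71670932, mean 61.03), beside another closed and an opened intron peak with means of 41.3 and 34.4. Bsn, the bassoon scaffold, had its highest mean in an opened peak 10.9 kb upstream (318). Cplx2 had 7 closed peaks and 1 opened one, which had the highest mean at the gene, 286, and lay 68.0 kb upstream at the start of another annotated gene. Cadps2, the second CAPS protein, had 5 closed peaks with means of 17.7 to 75.4 and 3 opened ones with means of 9.20 to 28.1.

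Of the vesicular transmitter transporters, Slc17a6, which loads glutamate, had 5 closed peaks, with the highest means in its introns at 40.7, 43.8 and 45.7 kb (99.6, 114 at chr7:51665627-51666038, and 67.3). Slc18a1, a monoamine transporter, had 3 closed peaks, 2 of them at 479 and 721 bp upstream (chr8:69089657-69089744, mean 16.96, and chr8:69089857-69090029, mean 48.9), and 1 opened one 1976 bp upstream (chr8:69091074-69091322, mean 50.7). All 4 lay inside the neighbouring gene Atp6v1b2, which encodes a subunit of the vacuolar proton pump, and its start was 1055 bp from the closest. Slc18a2 had 1 closed peak and Slc32a1, which loads GABA and glycine, 1 closed and 1 opened peak with means of 11.3 and 15.1. Dnm1, the dynamin that cuts vesicles from the membrane in endocytosis, had 1 opened peak, at its promoter (chr2:32353061-32353473, mean 88.8). This peak also lay inside the overlapping gene Ciz1, with its centre 940 bp from the start of Ciz1.

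The neighbourhood of each gene gives a second background. Within 1 Mb of the genes lay 4067 listed peaks assigned to other genes, of which 37.7% were closed. At 28 of the 38 genes the closed share of the gene's own peaks was above that of its neighbourhood, at 9 it was below, and at 1 (Slc17a6) it was equal. The 17 genes with closed peaks alone could not fall below their neighbourhood, and the 6 with opened peaks alone could not rise above it. This count thus partly restates those numbers, and it was not made over all protein-coding genes. The neighbourhood's closed share was 8.81 to 32.8% at the 6 genes with an opened promoter, with a median of 15.6%, and 14.4 to 77.3% at the 19 genes with a closed one, with a median of 54.5%. The opened promoters were thus found where most nearby peaks were opened too. The lowest of these values belonged to Vamp2 on chromosome 11, where 71.1% of all listed peaks were opened. Sv2a, at 14.4%, had the lowest closed share in the neighbourhood among the genes with a closed promoter.

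**Figure D4:**
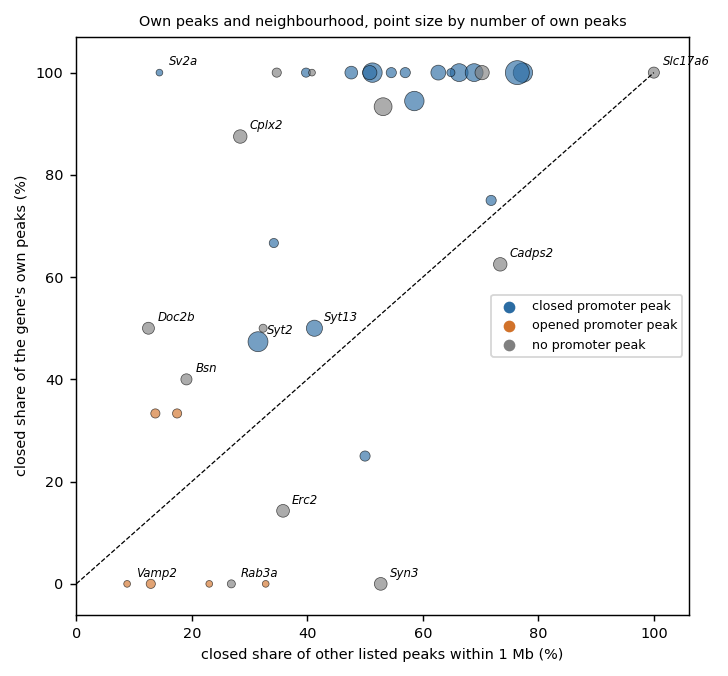
Closed share of the peaks of each of the 38 genes (y axis, %) against the closed share of the other listed peaks within 1 Mb of the gene (x axis, %), with the point area growing with the number of own peaks and the dashed line marking equal shares. Colours give the list of the promoter peak. Points above the line are 28 genes with a higher closed share than their neighbourhood.

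The closed peaks of these genes had a higher share at promoters than closed peaks in general and similar widths and means, which is given as a description with no test. Within 1 kb of an annotated start site of any gene lay 16.9% of the 225 closed peaks, against 9.68% of all closed peaks, and 53.3% lay in introns, against 51.5%. The median distance to the start site was 28.4 kb, against 42.4 kb. The median mean was 28.5 and the median width 239 bp, against 25.8 and 248 bp. The opened peaks had a lower share at promoters, 15.3% of 59 against 22.3% of all opened peaks, and had a median mean of 29.4 against 40.7. Of the closed peaks, 63.1% lay inside the gene they were assigned to, against 44.8% of all closed peaks, and 1.33% only inside another protein-coding gene, against 10.5%. For the opened peaks, these shares were 47.5%, against 48.5% of all opened peaks, and 22.0%, against 9.81%. Syt2 and Syt13 held 11 of the 13 opened peaks inside another gene.

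Short sequence motifs were close to the background. In the central 200 bp of the closed peaks, AP-1 strings (TGACTCA) were found in 17.8%, against 21.2% of all closed peaks, FOX strings (GTAAACA) in 8.89%, against 9.71%, and NFI strings (TTGGCA) in 11.6%, against 13.4%. TEAD strings (CATTCC) were found in 7.56%, against 8.77%, and NKX2 strings (CACTTGA) in 5.33%, against 5.04%. All of these background shares lay within the Wilson intervals of the closed peaks. In the opened peaks, TEAD strings were found in 18.6%, against 18.2% of all opened peaks. Both strands were searched, and AP-1 and NKX2 strings can share bases, as upstream of Snap25.

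Strings that match the RE1 consensus with up to 4 mismatches were found in 4 of the 284 peaks when the whole peak was searched. With up to 4 mismatches to the 20 positions of the REST consensus, 0 of the 225 closed peaks had a match in their central 200 bp, which allows a share of up to 1.33% (3 counts of 225), against 0.134% of all closed peaks. In the whole peak, 2 closed ones matched (0.889%, against 0.210% of all closed peaks), at the promoters of Syt14 and Syt4, both with 4 mismatches. Of the 59 opened peaks, 2 matched, in an intron of Syt7 and 40.2 kb upstream of Slc32a1, which is 3.39% (Wilson 95% interval 0.935 to 11.5%), against 0.211% of all opened peaks in the central window and 0.272% in the whole peak. These shares rest on 2 peaks each. The matches are shown on the strand of the consensus, with the bases that fit it in capitals, for Syt14 (chr1:193036157-193036176, minus strand, 4 mismatches), Syt7 (chr19:10403282-10403301, minus strand, 4 mismatches) and Slc32a1 (chr2:158570539-158570558, plus strand, 2 mismatches).
Syt14: aGAcCTGTCCgTGGTcCTGA
Syt7: atCcCTGTCCtTGGTGCTGA
Slc32a1: tGAGCTGTCCATGGTtCTGA
The 2 opened peaks had low means, 5.85 at Syt7 and 15.1 at Slc32a1, while the Syt14 promoter peak had a mean of 219. A match is only a description of the letters.

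Other genes of the pathway held closed and opened peaks in nearer numbers. Of 64 further genes, 63 were in the annotation and 51 had a listed peak, with 171 closed and 139 opened peaks, a closed share of 55.2% (Wilson 95% interval 49.6 to 60.6%). More closed than opened peaks were found at 24 genes (47.1%, against 37.5% of all protein-coding genes with a peak) and more opened at 24. A closed promoter peak was found at 11 (17.5%, against 8.42% of all genes) and an opened one at 20 (31.7%, against 26.6%). The opened share was near its background. The 11 were Syn1, Stxbp5l, Syt16, Syt17, Rims3, Rims4, Ppfia2, Slc18a3, Synpr, Amph and Sh3gl2, of which Synpr had 16 closed peaks, Amph 15, Syt16 12 and Rims3 7. The 20 included SNARE proteins that are known from fusion in many cell types, Stx2, Stx4a, Snap23, Vamp3 and Vamp8, and also Rab3d, Unc13d, Syngr2 and Syt8. They included Nsf too, a general factor of the same machinery that takes SNARE complexes apart. Stxbp6, encoding the SNARE-binding protein amisyn, had 24 opened peaks and 2 closed ones. Syp, encoding synaptophysin, a common NE marker, had no listed peak.

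Marker genes were read as a check of the labels. Among all protein-coding genes, 8.42% had a closed promoter peak and 26.6% an opened one. Of 8 NE genes, 7 had a closed promoter peak and none an opened one, and Syp had no listed peak. Insm1 had 28 peaks, all closed, while Chga, encoding chromogranin A, had 6 closed and 8 opened peaks and Ncam1 9 and 3. All of the 7 genes of non-NE epithelial and Notch-active cells had an opened promoter peak and none a closed one, with 26 opened and 11 closed peaks at Hes1. Markers of other cell types held listed peaks as well. The 5 leukocyte genes held 7 closed and 13 opened peaks, with 11 opened at Ptprc. The 3 endothelial genes held 35 closed and 10 opened, with 23 closed at Cdh5, and the 4 fibroblast genes 7 and 7. The closed share of all listed peaks was 49.2%. By the study's methods, the sorted cells were stained for CD45 and CD31, markers of leukocytes and endothelium, as lineage markers. Whether such cells in the sorted populations have a part in the peaks described here was not tested.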

How the data were processed

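ATAC-seq was done on sorted GFPhigh and GFPneg populations, and the labels name mm10, Bowtie2 2.3.4.1, MACS2 and DESeq2 1.28.1. The authors merged peaks across samples, compared the groups with DESeq2 and gave the peaks that passed their thresholds as an opened and a closed list. The signal the authors deposited is the mean normalized count of each peak over all libraries. The other deposited columns hold the authors' log2 fold changes, their errors, test statistics and p-values, and were not used. Only the lists, positions and means were taken, so no new test was made and no alternative fit could be run.

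Each peak was assigned by its centre to the nearest start site of a protein-coding gene in the basic GENCODE annotation of GRCm38.p6, which is mm10. All genes of the annotation served as background. The 44 genes, the other pathway genes, the markers and the motifs were chosen with earlier results of these data known, so an excess over the background describes these genes and supports nothing further. By rule, positions or means are given for promoter peaks, the peak with the highest mean of each role in each list, REST matches (without the site's sequence and position at Syt4) and, as counts and leading values, genes with both lists. Motifs were searched in the central 200 bp, REST with up to 4 mismatches. Of 7 short motifs searched, 2 are not reported here. Nearest-gene, interval and consensus steps were tested on simulated data. Python 3.11.15, numpy 2.4.6, pandas 2.3.3, pysam 0.24.0, scipy 1.17.1 and matplotlib 3.10.9 were used. Intervals are Wilson intervals at 95%, and the limit for a count of 0 is 3 counts. Depth per library is unknown. The alternatives were other peak assignments, a mean of at least 20, merging within 100 bp, a promoter of 3 kb, other mismatch limits and the whole peak.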

Additional observations from a re-analysis of the deposited data

How the results depend on the processing

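The closed share of the peaks of these genes was 66.4 to 80.1% over 9 alternatives. For 5 of them the share over all listed peaks was recomputed the same way: 44.3% at most 100 kb from the start, 45.02% with a mean of at least 20, 52.9% over 1 kb from every start site, 41.9% with every gene counted once and 50.6% without chromosome 11. The share of the peaks of these genes was 68.2% when every peak within 10 kb of the gene body was counted, a setting without a recomputed background. It was 66.4% when every gene counted once and 76.7% for peaks at most 100 kb from the start. A mean of at least 20 gave 79.3% and peaks over 1 kb from every start site 78.9%. Leaving out Cadps gave 77.0%, and leaving out chromosome 11, an alternative chosen after the values were seen, gave 80.1%. The number of genes with more closed than opened peaks was 20 to 25 over 8 alternatives, with 33 to 42 genes holding a peak. It was 20 of 33 for peaks over 1 kb from every start site and 25 of 34 with start sites of any gene type. With the gene body extended by 10 kb, it was 24 of 42. With a promoter of 3 kb, 24 genes had a closed and 10 an opened promoter peak, against 19 and 6. REST matches in the central window numbered 2, against 1 with up to 3 mismatches, 2 with up to 5 and 4 in the whole peak. The cause of these shifts was not tested. No paired analysis was possible because the files hold 1 value per peak for the whole comparison, and for the same reason no replicate could be left out. Depth limits cannot be set, and weakly changed sites are not in the lists.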
